A study of Mus musculus with 19 samples.

Results

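Complement is a cascade of blood and cell-surface proteins in which cleavage of C3 and C5 marks targets and releases the anaphylatoxin peptides C3a and C5a. C3a and C5a act through the receptors encoded by C3ar1 and C5ar1, properdin (Cfp) stabilises the alternative-pathway convertase that cleaves C3, and the membrane regulators encoded by Cd55 (decay-accelerating factor) and Cr1l (Crry) limit convertases on the cell's own surface. T cells are known to make some of these proteins and to respond to their fragments. The 7 genes described here are C3, Cfp, C3ar1, C5ar1, Cd93, Cd55 and Cr1l, out of 22878 gene symbols in the RNA tables. Cd93 encodes a surface glycoprotein once described as a receptor for C1q. Each gene was taken by its symbol, using its most highly counted transcript summed across the 16 RNA libraries. The list was drawn up with results of these libraries in view, so it counts as selected on the reads and KO to WT changes of these same RNA comparisons. Their levels, changes and calls are therefore a description and carry no p-values.

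The libraries come from cultured mouse T helper 2 (Th2) cells, CD4 T cells that make interleukins 4, 5 and 13, in which the gene for the transcription factor Bcl11b or GATA3 was deleted. In the Bcl11b experiment every culture, WT included, came from naive CD4 T cells of Bcl11bfl/fl-CreERT2 mice, whose Cre recombinase is switched on by 4-hydroxytamoxifen (4-OHT). Early cultures had 4 days of Th2 conditions, and late cultures had 4 days, 1 day of rest in IL-2 and 4 more days. The KO cultures received 4-OHT and the WT cultures did not, so effects of the drug and of the deletion cannot be told apart. For the Gata3 experiment, labelled early and late, WT and KO, the sources used here do not give the mouse line or the culture. Each of the 8 groups has 2 RNA libraries, and nothing says whether these are separate cultures or animals, so the error measures only the spread between the samples. Bcl11b and GATA3 chromatin immunoprecipitation (ChIP) libraries from late WT Th2 cells, 1 per antibody, and 1 input library gave the peaks. CPM is a gene's reads per 1000000 reads of the genes kept, scaled within each experiment.

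Gene reads ranged from 4687552 to 14577958 per library. Both early Bcl11b WT libraries differed from the rest in their background: 20.7% and 16.9% of the reads implied by their RPKM values were gene reads, against at least 40.7% in the other 14. Over 1465 transcripts of olfactory and vomeronasal receptors, genes with no known role in T cells, these 2 libraries had 3.74 and 4.84 reads per kb, against at most 0.505 elsewhere. The 10 T cell markers had reads in all 16 libraries. Summed over 7 Th2 markers, the level was 987 to 1008 CPM in early WT and 1302 to 1450.0 CPM in early KO of the Bcl11b experiment, and 3671 to 7113 CPM in the other WT groups and late Bcl11b KO. It was 478 to 482 CPM in early and 1351 to 1479 CPM in late Gata3 KO. The 7 markers include Gata3 itself, the gene targeted in that experiment. Its reads, given next, made up most of the sum in early and in late Gata3 KO. The targeted genes kept reads: Bcl11b was at 54.2 to 66.5 CPM in early and 75.6 to 137 CPM in late KO of its experiment (WT 126 to 181), and Gata3 at 419 to 425 CPM in early and 954 to 1090.4 CPM in late KO of its experiment (WT 1178 to 1382). The sources used here do not name the deleted exons, so these reads do not check the deletion.

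The members with a peak close to the start bring in the sequences that carry the binding data. The promoter of C3ar1 and that of Cd55 are printed because a peak covered all or part of the 250 bases before the gene's start. Both are from the RefSeq table (GRCm38.p6, the assembly also called mm10), on the minus strand, 5′ to 3′. In the C3ar1 window, chr6:122856158-122856407, capitals mark matches to GATA-type hexamers (AGATAA and AGATAG, and the same with T as the first base, TGATAA and TGATAG, each searched on both strands). In the Cd55 window, chr1:130462745-130462994, which lies inside the outer bounds of the RefSeq gene, capitals mark the 83 bases covered by a Bcl11b peak.
C3ar1: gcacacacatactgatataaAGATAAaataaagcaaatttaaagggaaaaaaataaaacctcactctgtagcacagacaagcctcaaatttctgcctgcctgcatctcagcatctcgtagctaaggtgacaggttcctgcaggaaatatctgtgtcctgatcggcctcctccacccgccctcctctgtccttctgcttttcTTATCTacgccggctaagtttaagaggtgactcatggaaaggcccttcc
Cd55: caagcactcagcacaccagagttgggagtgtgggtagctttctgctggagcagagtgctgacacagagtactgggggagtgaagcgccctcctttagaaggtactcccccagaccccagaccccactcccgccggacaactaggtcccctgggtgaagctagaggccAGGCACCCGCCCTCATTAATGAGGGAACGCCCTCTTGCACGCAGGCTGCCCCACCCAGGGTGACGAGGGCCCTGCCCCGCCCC
The C3ar1 window held 2 matches, 230 and 49 bases before the start. The windows of C3, C5ar1, Cd55, Cfp and Cr1l held 0 matches, which says only that these letters are not in the windows. Of the 32851 promoters in the table, 26.5% held at least 1 match in a window of this length. A match is a description of the sequence, not of a binding site. Promoters of 6 of the 7 genes were in the table, and Cd93 had no entry.

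C3, the protein on which all activation routes of complement converge, had its lowest and its highest group mean in early Bcl11b cultures. Early WT replicates 1 and 2 had 833 and 542 reads (174 and 114 CPM), and early Bcl11b KO had 10 and 16 reads (1.04 and 1.76 CPM). C3 was lower in KO, by a log2 fold change of -6.67 ± 0.42 (SE). In late cultures the order was the opposite: WT had 4.69 and 4.98 CPM and Bcl11b KO 27.4 and 21.4 CPM, a log2 fold change of 2.34 ± 0.34. Gata3 KO cultures also had more C3 than WT at both stages. Early WT had 28 reads and 1 read (3.80 and 0.125 CPM) and early Gata3 KO 26.0 and 18.3 CPM, a log2 fold change of 3.53 ± 0.79. Without early WT replicate 1 this value was 7.31 and without replicate 2 it was 2.54, so the size rests on which of the 2 WT libraries is used. Late Gata3 WT had 3.56 and 1.39 CPM and late KO 35.2 and 57.3 CPM, a log2 fold change of 4.23 ± 0.72. The groups did not overlap in any of the 4 comparisons (early and late Bcl11b, early and late Gata3), as was true of 53.9%, 54.3%, 67.1% and 54.1% of all genes tested. C3 was called lower in early Bcl11b KO under all 18 alternative settings, and called higher in 13 of 18 for late Bcl11b KO, 16 for early Gata3 KO and 15 for late Gata3 KO. The late Bcl11b call was lost without late WT replicate 1 or 2 or late KO replicate 1. Values on log2(RPKM + 1), a scale that understates changes of low genes, were smaller, at -2.46 in early and 1.08 in late Bcl11b KO and 1.59 in early and 2.24 in late Gata3 KO. In early Gata3 KO the call did not hold with early KO replicate 1 left out, nor in late Gata3 KO with either late WT replicate left out.

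The early WT level of C3 comes from the 2 libraries with the high receptor read rate. At their receptor read rate, a transcript of this length would have 19.2 and 24.8 reads, against the 833 and 542 counted. The neutrophil marker list, 10 genes, summed to 85.9 to 113 CPM in these libraries and to at most 1.46 CPM in early KO, with reads for 6 of the 10 in each early WT library. Most of it was Cxcr2 (79.6 and 49.2 CPM), followed by Mpo (18.4 and 23.3 CPM), and S100a8, S100a9 and Elane had no reads there. Both neutrophil markers that were tested fell in early Bcl11b KO. The epithelial and hepatocyte list, 7 genes, summed to 47.5 to 51.8 CPM in early WT and 6.98 to 14.2 CPM in early KO. In early Gata3 cultures, where C3 was higher in KO, this list was lower in KO (4.69 to 6.60 CPM, WT 28.7 to 39.3). In late Gata3 cultures it summed to 31.3 to 68.1 CPM in KO and 28.1 to 37.4 CPM in WT. In late Gata3 KO, where C3 was also high, the neutrophil list summed to 11.7 to 22.5 CPM (late WT 2.72 to 2.79), with reads for 1 to 3 of its 10 genes. The 7 dendritic cell markers summed to 69.9 to 128 CPM in early and 184 to 190.2 CPM in late Gata3 KO, against 38.2 to 43.2 CPM in the WT groups. Only 3 to 4 of the 7 had reads in each Gata3 KO library. Of the 2 tested, 1 rose and 1 fell at each stage. The part of other cells in the C3 level was not tested. In bulk RNA, fewer cells of a type and less RNA per cell cannot be told apart.

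Properdin (Cfp), the only positive regulator of the alternative pathway among the 7 genes, was highest in early Bcl11b KO. Early WT had 12.8 and 14.0 CPM and early Bcl11b KO 32.2 and 38.3 CPM, a log2 fold change of 1.39 ± 0.42. Late WT had 3.501 and 3.18 CPM and late Bcl11b KO 6.36 and 11.1 CPM, without overlap but with a change of 1.38 ± 0.43 that was not called. The early call held in only 6 of 18 settings and was lost on leaving out any 1 of the 8 libraries of the experiment. The 8 libraries of the Gata3 experiment had 7 to 25 reads of Cfp each, 0.75 to 2.62 CPM, and the gene did not pass the filter. The 7 B cell markers followed a similar order over the groups. Their sum was 102 to 134 CPM in the 4 early Bcl11b libraries, 5.60 to 5.92 CPM in late WT, 22.1 to 32.9 CPM in late KO and at most 5.68 CPM in the Gata3 experiment. Of the 3 B cell markers tested, none was called in early Bcl11b KO and 2 rose in late Bcl11b KO. The part of B cell RNA in the Cfp level was not tested.

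**Figure D1:**
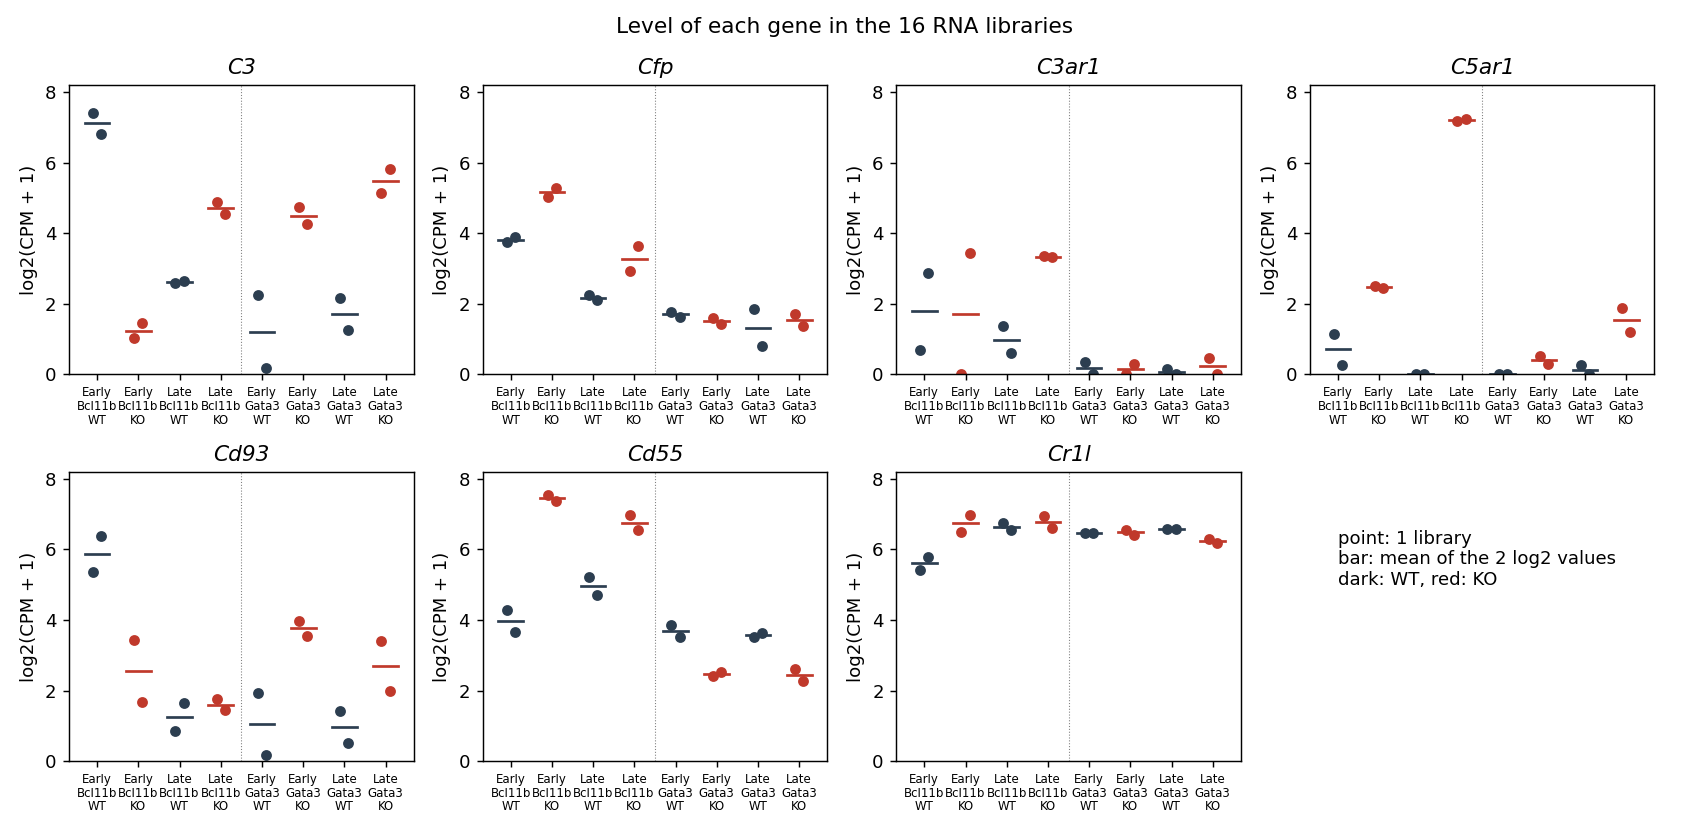
Level of each of the 7 genes in the 16 RNA libraries, as log2(CPM + 1) with CPM scaled over all 16 libraries (vertical axis), for the 8 groups (horizontal axis); each point is 1 library, each bar the mean of the 2 log2 values, WT dark and KO red. C5ar1 stands high only in the 2 late Bcl11b KO libraries, and C3 is highest in early Bcl11b WT and lowest, by mean CPM, in early Bcl11b KO.

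C5ar1, the receptor for C5a, was nearly limited to late Bcl11b KO cultures. Late WT had no reads in either library and late Bcl11b KO had 1944 and 1359 reads (139 and 143 CPM). Against a floor of 3 counts over the WT group, C5ar1 was at least 1320-fold higher in KO. Early WT had 6 reads and 1 read and early Bcl11b KO 45 and 41 reads (4.69 and 4.52 CPM), a log2 fold change of 2.63 ± 0.56. The early WT reads were below the 9.28 and 12 that the receptor read rate of those libraries gives for this length. The late call held in all 18 settings. The early call held in 17, and its size moved from 1.83 without early WT replicate 2 to 4.38 without early WT replicate 1, and to 8.46 with the receptor read rate subtracted. In the Gata3 experiment C5ar1 stayed at few reads and below the filter: 0 and 0 in early WT, 4 and 2 in early KO, 2 and 0 in late WT, and 14 and 13 in late KO. The late Gata3 KO to WT ratio was 17.03, with a 95% counting interval of 4.28 to 148.

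C5ar1 is known from myeloid cells, and the 11 monocyte and macrophage markers read together were also higher in late Bcl11b KO (40.4 to 47.4 CPM summed) than in late WT (12.9 to 16.2 CPM). None of the 4 tested members of that list was called. In late KO 9 of the 11 had reads, led by Cd68 (11.9 and 15.3 CPM) and Emr1 (14.7 and 10.7 CPM), with Lyz2 at 4.79 and 2.85 CPM and Csf1r at 1.57 and 1.48 CPM, and Lyz1 and Fcgr1 had none. Itgam, the myeloid chain of complement receptor 3, which did not pass the filter, had 5.56 ± 2.65 CPM in late KO and 1.45 ± 0.32 CPM in late WT. The 7 dendritic cell markers summed to 93.6 to 102 CPM in late KO and 49.6 to 49.9 CPM in late WT, and neither of the 2 tested was called. The neutrophil list summed to 2.57 to 4.22 CPM in late KO and 7.98 to 8.51 CPM in late WT. Over the 8 groups the monocyte and macrophage list was highest in early Bcl11b WT (63.5 to 78.2 CPM), where C5ar1 had 6 reads and 1 read. In early Bcl11b KO, with 45 and 41 reads of C5ar1, it summed to 19.0 to 39.2 CPM. It summed to 19.2 to 34.6 CPM in early and 25.8 to 41.2 CPM in late Gata3 WT, with at most 2 reads of C5ar1 per library. In early and late Gata3 KO it summed to 6.60 to 8.01 and 14.6 to 18.4 CPM. The part of myeloid RNA in the C5ar1 level was not tested.

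C3ar1, the receptor for C3a, passed the filter in neither experiment; its highest RPKM, 0.979, was in late Bcl11b KO. In late cultures it had 21 and 7 reads in WT and 124 and 83 reads in Bcl11b KO, 1.47 and 0.505 CPM against 8.86 and 8.75 CPM, and the groups did not overlap. In early Bcl11b cultures the replicates disagreed within both groups. WT had 3 and 31 reads, with 16.1 and 20.8 given by the receptor read rate, and KO had 0 and 90. Each of the 8 Gata3 libraries had 0 to 2 reads, so a difference between WT and KO was not detectable at this depth. The GATA3 peak over its promoter, from late WT cells, is thus at a gene with few reads in late WT. Late Bcl11b WT had 21 and 7 reads, and each library of the Gata3 experiment had at most 2.

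Cd93 had its highest level in early Bcl11b WT, 196 and 403 reads (41.0 and 84.5 CPM). Early Bcl11b KO had 10.0 and 2.21 CPM, a log2 fold change of -3.36 ± 0.72 that was called in all 18 settings and was -4.88 without early KO replicate 1. In late cultures the levels were low and overlapped, 0.770 and 2.02 CPM in WT and 2.29 and 1.69 CPM in KO (0.52 ± 0.75, not called). Gata3 KO had more Cd93 than WT. Early WT had 21 reads and 1 read and early Gata3 KO 136 and 95 reads (14.7 and 10.9 CPM), a log2 fold change of 3.13 ± 0.91. It was 6.52 without early WT replicate 1 and 2.16, no longer called, without early WT replicate 2. The call held in 13 of 18 settings and was also lost without either early KO replicate, with DESeq2 and without the filter. Late Gata3 WT had 1.67 and 0.429 CPM and late KO 9.79 and 3.04 CPM, without overlap and not called (2.49 ± 0.99). This change was called in 1 of 18 settings, with the replicate number as a block, and the numbers are not known to pair samples. The early Gata3 WT replicate with 1 read of Cd93 was also the one with 1 read of C3.

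Cd93 is best known from endothelial and myeloid cells. The 6 endothelial markers summed to 240.0 to 307.9 CPM in early Bcl11b WT and 122 to 203 CPM in early KO, and the 11 monocyte and macrophage markers to 63.5 to 78.2 CPM and 19.0 to 39.2 CPM. In early Bcl11b WT the endothelial markers Cdh5 (10.5 and 9.22 CPM) and Vwf (16.5 and 19.7 CPM) and the macrophage marker Csf1r (9.42 and 40.7 CPM) were present, and each was at most 0.313 CPM in early KO. Other members persisted: 1 to 3 of the 6 endothelial and 6 to 7 of the 11 monocyte and macrophage markers had reads in early Bcl11b KO. Neither the 1 endothelial marker tested nor any of the 4 monocyte and macrophage markers tested was called there. The receptor read rate gives 24.8 and 32.1 reads for the length of Cd93 in these 2 libraries. The part of such cells or of background reads in that level was not tested. In early Gata3 KO the endothelial list summed to 104.7 to 106 CPM, with reads for 2 of its 6 genes, and the monocyte and macrophage list to 6.60 to 8.01 CPM, with reads for 4 to 5 of its 11. The WT sums were 91.1 to 122 CPM and 19.2 to 34.6 CPM. In late Gata3 the endothelial list summed to 184 to 257 CPM in KO and 93.1 to 133 CPM in WT, with reads for 1 of its 6 genes in each KO library.

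The membrane regulator Cd55 moved in opposite directions in the 2 experiments. Early Bcl11b WT had 91 and 56 reads (19.1 and 11.7 CPM) and early Bcl11b KO 1809 and 1497 reads (189 and 165 CPM), a log2 fold change of 3.52 ± 0.32. Late WT had 34.0 and 23.9 CPM and late Bcl11b KO 122 and 88.6 CPM, a log2 fold change of 1.86 ± 0.29. Cd55 was thus higher in every Bcl11b KO library than in every WT library of either stage. In Gata3 KO it was lower than in WT. Early WT had 13.7 and 10.6 CPM and early Gata3 KO 4.33 and 4.81 CPM, a log2 fold change of -1.41 ± 0.25. Late WT had 10.7 and 11.6 CPM and late Gata3 KO 5.28 and 3.95 CPM, a log2 fold change of -1.30 ± 0.26. Both early calls held in all 18 settings. The late Bcl11b call held in 14 and was lost without late WT replicate 1 or 2 or late KO replicate 1, and the late Gata3 call held in 17 and was lost without late KO replicate 2.

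Cr1l, the rodent membrane regulator Crry, varied least in level of the 7 genes. It ran from 71.6 to 126 CPM, scaled over all 16 libraries, in the 14 libraries other than early Bcl11b WT, which had 41.8 and 54.5 CPM. Early Bcl11b WT had 206 and 265 reads and early KO 859 and 1148 reads. The log2 fold change was 1.13 ± 0.26 and was called. The call held in 16 of 18 settings and was lost without early KO replicate 2 (0.81) and with only the 4 libraries compared. The low early WT level comes from the 2 libraries with the high receptor read rate, whose part in this change was not tested. Late Bcl11b KO overlapped WT (0.17 ± 0.25) and so did early Gata3 KO (0.01 ± 0.11); the sign of each turned in some settings. Late Gata3 KO had 79.5 and 73.4 CPM and WT 94.9 and 95.7 CPM, without overlap and not called (-0.32 ± 0.11). This change too was called in 1 of 18 settings, with the replicate number as a block.

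**Figure D2:**
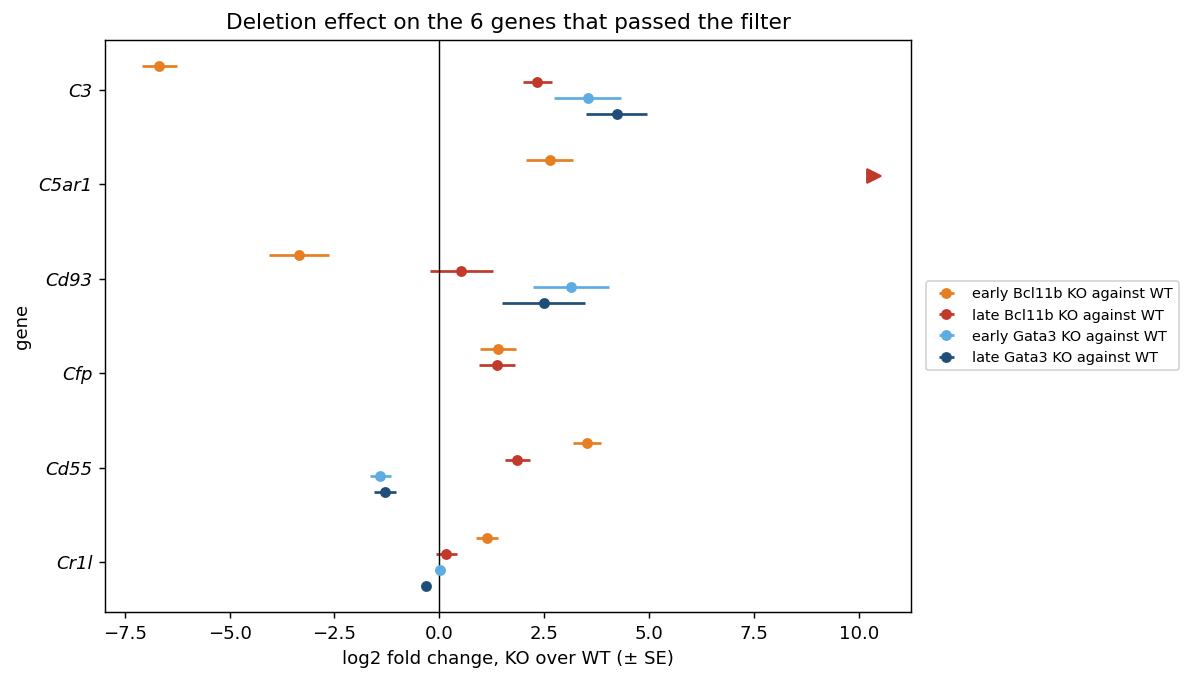
Log2 fold change of KO over WT (horizontal axis) with its SE as bars, for the 6 genes that passed the filter in at least 1 experiment (vertical axis), coloured by comparison; the triangle is the lower bound for C5ar1 in late Bcl11b KO, whose WT libraries had no reads. C3 is negative in early Bcl11b KO and positive in the other 3 comparisons, and Cd55 is positive in both Bcl11b comparisons and negative in both Gata3 comparisons.

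Counted together, 6 of the 7 genes passed the filter (RPKM of at least 1 in 2 of 8 libraries) in the Bcl11b experiment, all but C3ar1. A gene was called at an adjusted p under 0.05 from edgeR's quasi-likelihood test over all genes. In early Bcl11b KO 4 of the 6 were called higher and 2 lower, where 21.0% of the 10873 genes tested were called, 11.0% higher and 10.0% lower. In late Bcl11b KO 3 were called higher and 0 lower, with 2.25% of all genes called, 1.71% higher and 0.543% lower. In the Gata3 experiment 4 passed the filter (C3, Cd55, Cd93 and Cr1l). In early Gata3 KO 2 were called higher and 1 lower, with 30.7% of 10601 genes called, 14.0% higher and 16.8% lower. In late Gata3 KO 1 was called higher and 1 lower, with 14.2% called, 8.48% higher and 5.70% lower. The groups did not overlap for 6 and 4 of the 6 genes in early and late Bcl11b KO, and for 3 and 4 of the 4 in early and late Gata3 KO. Since the genes were chosen with these contrasts known, nothing is read from the counts. In the Bcl11b experiment C3 passed the filter only through early WT and late KO, C5ar1 only through late KO and Cd93 only through early WT, and in the Gata3 experiment C3 and Cd93 passed only through KO libraries, so they had to differ. The median log2 fold change of the members tested was 1.26, 1.62, 1.57 and 1.08 in early Bcl11b, late Bcl11b, early Gata3 and late Gata3 KO, beside 0.028, -0.02, -0.003 and 0.004 for all genes tested.

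Per transcript length, the balance between the 7 genes also differed between groups (mean deposited RPKM ± SD, n = 2). In late Bcl11b WT the order was Cr1l (28.9 ± 3.49), Cd55 (5.87 ± 1.65), Cfp (1.12 ± 0.12) and C3 (0.480 ± 0.0038), with C5ar1 at 0. In late Bcl11b KO C5ar1 stood at 25.5 ± 1.51, level with Cr1l (28.8 ± 7.10) within their spread, and Cd55 at 18.9 ± 5.68. The highest RPKM of C3 in a group was 5.28 ± 2.08 in early Bcl11b WT and 5.17 ± 1.91 in late Gata3 KO, which did not differ beyond their spread. RPKM here is relative to all mapped reads, of which the early Bcl11b WT libraries have the smaller gene share, so their values are lowered beside the other groups.

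Ordered by CPM scaled over all 16 libraries, C3 ran from early Bcl11b WT (140.2) through late Gata3 KO (45.1), late Bcl11b KO (25.3) and early Gata3 KO (21.9) to the 4 lowest groups (1.39 to 5.09). Late Bcl11b KO and early Gata3 KO overlapped, as did the 3 lowest groups in turn. Cd55 ran from early Bcl11b KO (174.9) and late Bcl11b KO (108.7) to late Bcl11b WT (30.6), then early Bcl11b WT, early Gata3 WT and late Gata3 WT (15.0, 12.01 and 10.97), neighbours whose ranges overlapped, and last early and late Gata3 KO (4.52 and 4.50), which overlapped as well. C5ar1 had 145.9 in late Bcl11b KO and 4.56 in the next group, early Bcl11b KO. Cd93 had 61.3 in early Bcl11b WT, 12.7 in early Gata3 KO, and at most 6.24 in the other 6 groups, neighbours of which overlapped. Cfp had 34.9, 13.1, 9.01 and 3.52 in early KO, early WT, late KO and late WT of the Bcl11b experiment, none overlapping the next, and at most 2.25 in the Gata3 groups.

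Other genes followed some of these orders closely. Over the 16 libraries on log2(CPM + 1), among 10487 genes, the gene most like C3 was Itsn1 (Pearson r = 0.84), most like C5ar1 Cck (0.94), followed by Plaur (0.91), most like Cd55 Sulf2 (0.97), most like Cd93 Haao (0.94), and most like Cr1l Degs1 (0.91). The gene most like Cfp was Hyi (0.97). Cck was at 6.92 CPM in late Bcl11b KO and at most 0.360 in every other group. Sulf2, an extracellular sulfatase, was at 89.4 CPM in early and 60.1 CPM in late Bcl11b KO, 4.08 and 13.2 CPM in the WT groups, and at most 2.23 CPM in the Gata3 groups. Haao was at 18.8 CPM in early Bcl11b WT and 5.69 CPM in early Gata3 KO, and at most 1.30 CPM elsewhere. These are descriptions over libraries that share 2 experiments and the 2 early WT libraries with the high receptor read rate.

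Beyond the 7 genes, 51 further complement genes of the classical, lectin, alternative and terminal routes, their regulators and receptors were in the tables, and most were below the filter. In the Bcl11b experiment 9 were tested. In early Bcl11b KO 1 fell and 2 rose (edgeR's quasi-likelihood test, Benjamini-Hochberg adjustment over all genes). Cfb, factor B, whose fragment forms the alternative C3 convertase, fell from 26.7 ± 6.06 to 2.98 ± 1.41 CPM (SD, n = 2), a log2 fold change of -3.16 ± 0.58 with an edgeR adjusted p of 0.00431. Its early WT level comes from the libraries with the high receptor read rate. Late Bcl11b WT had 4.93 ± 1.05 CPM and late KO 3.86 ± 0.21 CPM. Cfb may thus have passed the filter mainly through early WT, its highest group, which the p-value does not allow for. The part of background reads or other cells in the early WT level of Cfb was not tested. Calr, calreticulin, a chaperone that also binds C1q at the cell surface, rose by 0.81 ± 0.14 (edgeR adjusted p = 0.00398), and Itgb2, the common chain of complement receptors 3 and 4, by 0.70 ± 0.16 (edgeR adjusted p = 0.0113). The Cfb and Calr calls held in all 18 settings, and Itgb2 held in 16 and was lost without early KO replicate 1 and with only the 4 libraries compared (largest adjusted p over the settings 0.0673). Their median was 0.33. In late Bcl11b KO only Itgb2 rose, from 412 ± 53.4 to 954 ± 22.8 CPM (1.21 ± 0.16, edgeR adjusted p = 0.00416), a call lost without late WT replicate 1, and the median of the 9 was 0.61. Itgax, the partner of Itgb2 in complement receptor 4, named after its values were seen, was 11.3 ± 1.73 against 1.597 ± 0.22 CPM and did not pass (2.82 ± 0.76, edgeR adjusted p = 0.0953).

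In early Bcl11b cultures 42 of the 51 genes were below the filter. Of these, 27 were lower in both KO libraries than in both WT libraries and 0 were higher, and 15 overlapped. Among all genes tested, 53.9% did not overlap, in either direction. Without the filter, the median log2 fold change over 21796 genes was -0.691 in early Bcl11b KO. The share among all genes below the filter was not counted, so nothing particular to complement genes is read from the 27. The 42 genes together had 501 and 845 reads in the early WT libraries, where the receptor read rate gives 418 and 539.9 for their lengths, and 377 and 152 reads in early KO, where it gives 56.4 and 32.1. C6, a terminal component, had 79 reads in early WT and 0 in early KO. Its early WT libraries disagreed widely (8.28 ± 11.4 CPM, SD).

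Daf2, a close copy of Cd55, is also named after its values were seen. It had 35 reads in early Bcl11b WT and 308 in early KO (2.17 ± 0.70, edgeR adjusted p = 0.0593) and no reads in any of the 4 late Bcl11b libraries, where Cd55 had 331 to 1702. Daf2 thus passed the filter only through early libraries, where KO had more reads, and the p-value does not allow for that. Reads of such copies can be split or shared by the counting, so the early values of each are uncertain.

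In the Gata3 experiment 5 of the 51 genes were tested. In early Gata3 KO Hc, the gene of C5, from which C5a is cut, fell from 19.8 ± 4.97 to 0.220 ± 0.15 CPM (302 against 4 reads over the groups), a log2 fold change of -6.38 ± 0.71 with an edgeR adjusted p of 0.000123 that held in all 18 settings. C8g, a subunit of the terminal component C8, rose by 2.31 ± 0.72 on few reads (36 against 6, edgeR adjusted p = 0.0327) and Itgb2 by 0.45 ± 0.15 (edgeR adjusted p = 0.0388). With 6 reads in early and 4 in late WT, C8g passed the filter only through KO libraries, so it had to differ. Hc, with 4 reads in early KO, passed it only through the other groups, which its p-value does not allow for. The C8g call held in 13 of 18 settings and was lost without early WT replicate 2 or either early KO replicate, with DESeq2 and with all 16 libraries. The Itgb2 call held in 15 and was lost without either early WT replicate or early KO replicate 1. The median of the 5 was 0.15. In late Gata3 KO Hc fell from 21.1 ± 7.74 to 7.36 ± 4.82 CPM (-1.62 ± 0.44, edgeR adjusted p = 0.0377) and Itgb2 rose by 0.57 ± 0.15 (edgeR adjusted p = 0.0275), with a median of -0.15. The late Hc call held in 9 of 18 settings and was lost without early KO replicate 1 or 2, late WT replicate 1 or late KO replicate 2. Between the stages, the change of Hc differed by 4.76 ± 0.95, late minus early (edgeR's quasi-likelihood interaction test, adjusted p = 0.0115), where 12.2% of all genes tested were called. The late Itgb2 call held in 12 and was lost without late WT replicate 1 or 2 or late KO replicate 1. Hc was called in neither Bcl11b comparison, with 0.06 ± 0.58 in early and 0.65 ± 0.57 in late KO. The receptor C5ar1 and the source of its ligand, Hc, thus had their largest changes in different experiments, on values that were not compared by a test.

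**Figure D3:**
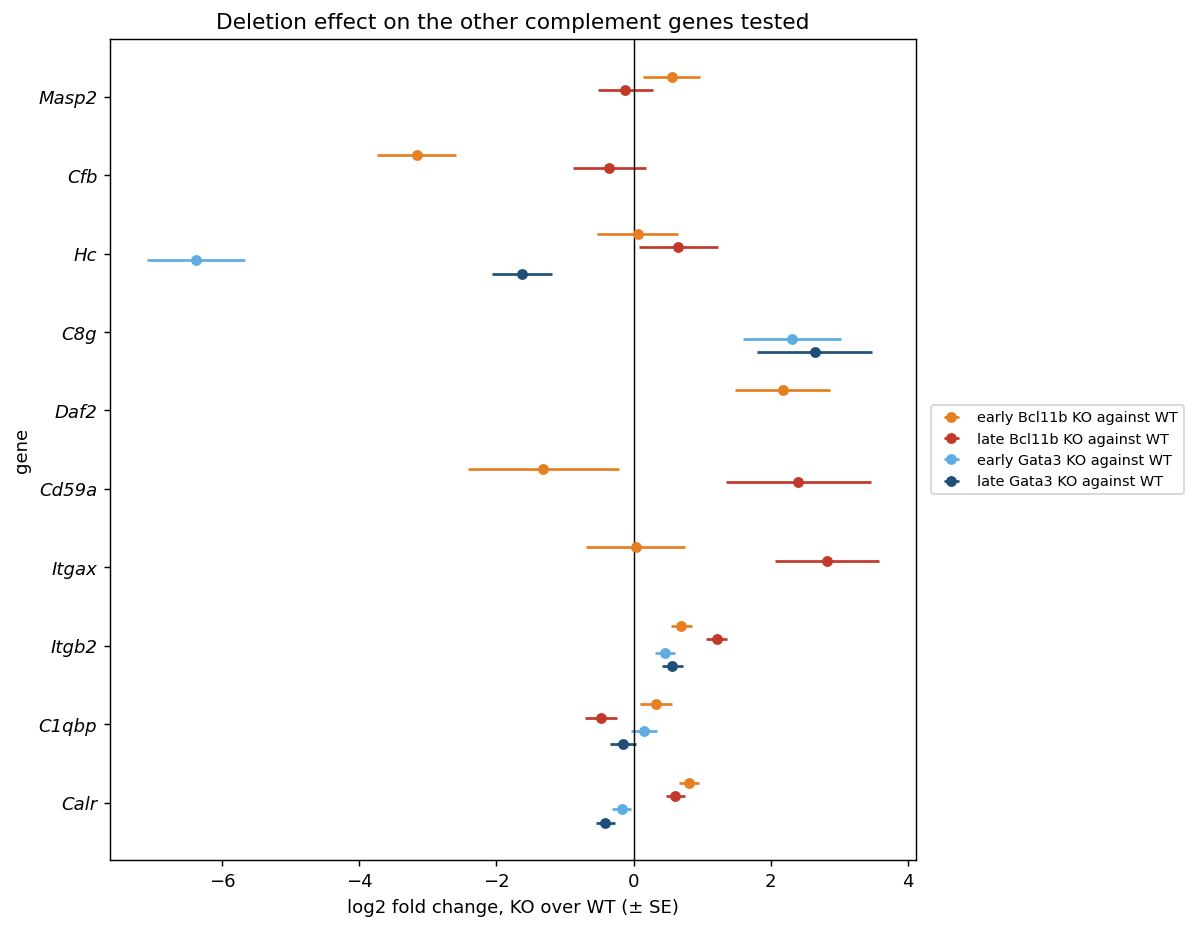
Log2 fold change of KO over WT (horizontal axis) with its SE as bars, for the other complement genes tested in at least 1 experiment (vertical axis), coloured by comparison. Hc lies far below 0 in early Gata3 KO, Cfb in early Bcl11b KO, and Itgb2 is above 0 in all 4 comparisons.

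Binding of Bcl11b and GATA3 in late WT Th2 cells was read from the authors' peak lists, in which fold enrichment and score (-10 times log10 of the peak caller's p) are the authors' own values from 1 library each. Of the 7 genes, 3 had an assigned Bcl11b peak (C5ar1, Cd55 and Cd93) and 3 an assigned GATA3 peak (C3ar1, C5ar1 and Cd55). Among the 10873 genes tested in the Bcl11b experiment 5437 had a Bcl11b peak and 5812 a GATA3 peak, so the shares of the members are not set apart. C3, Cfp and Cr1l had none. None of these peaks overlapped an input peak. All positions are on mm10, counted from 1.

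At C3ar1 a GATA3 peak at chr6:122856059-122856679 with a fold enrichment of 6.23 covered all 250 bases of the promoter printed above, with its summit 157 bases before the start. At Cd93 a Bcl11b peak at chr2:148443277-148443988 had a fold enrichment of 4.30 and its summit 116 bases before the start. It is the 1 of the 5 Bcl11b peaks of these genes with a score above 100 (129). At Cd55 both factors had a peak just inside the gene, Bcl11b at chr1:130462058-130462827 (fold enrichment 4.02) and GATA3 at chr1:130462170-130462590 (2.11). A further pair lay about 71 kb before the start, within the gene model Gm16083: Bcl11b at chr1:130533553-130534044 (4.73) and GATA3 at chr1:130533354-130534047 (10.20, score 544), the strongest enrichment among the members. A GATA3 peak without Bcl11b at chr1:130498996-130499368 (3.87) overlapped no RefSeq gene.

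At C5ar1 Bcl11b and GATA3 shared 2 positions. One lay 1772 bases before the start by the Bcl11b summit (Bcl11b chr7:16260902-16261505, fold enrichment 3.4; GATA3 chr7:16260998-16261370, 1.93). The other lay within the gene, 4821 bases after the start (Bcl11b chr7:16253940-16254864, 2.07; GATA3 chr7:16254086-16254598, 1.4). Another GATA3 peak at chr7:16261513-16261905 (3.96) had no Bcl11b peak. Thus 4 of the 5 Bcl11b peaks of the members, 2 each at Cd55 and C5ar1, overlapped a GATA3 peak by at least 1 base and also by at least 0.5 of the shorter peak. C5ar1 had no reads in the late Bcl11b WT libraries, which are labelled as the same stage as the ChIP cells.

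**Figure D4:**
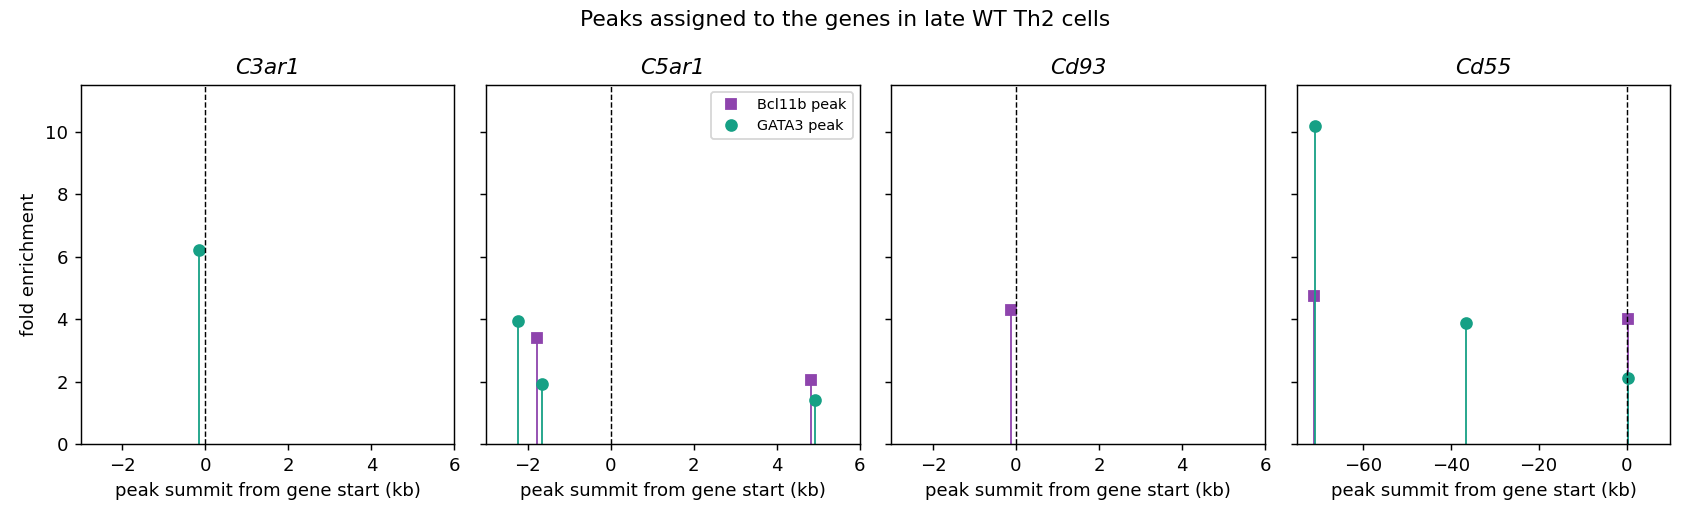
Fold enrichment (vertical axis) of each assigned Bcl11b peak (squares) and GATA3 peak (circles) by the distance of its summit from the gene's start in kb (horizontal axis, negative before the start, dashed line at the start); the Cd55 panel has a wider range. The strongest peak is the GATA3 peak of Cd55, 70932 bases before the start, with a Bcl11b peak beside it.

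**Figure D5:**
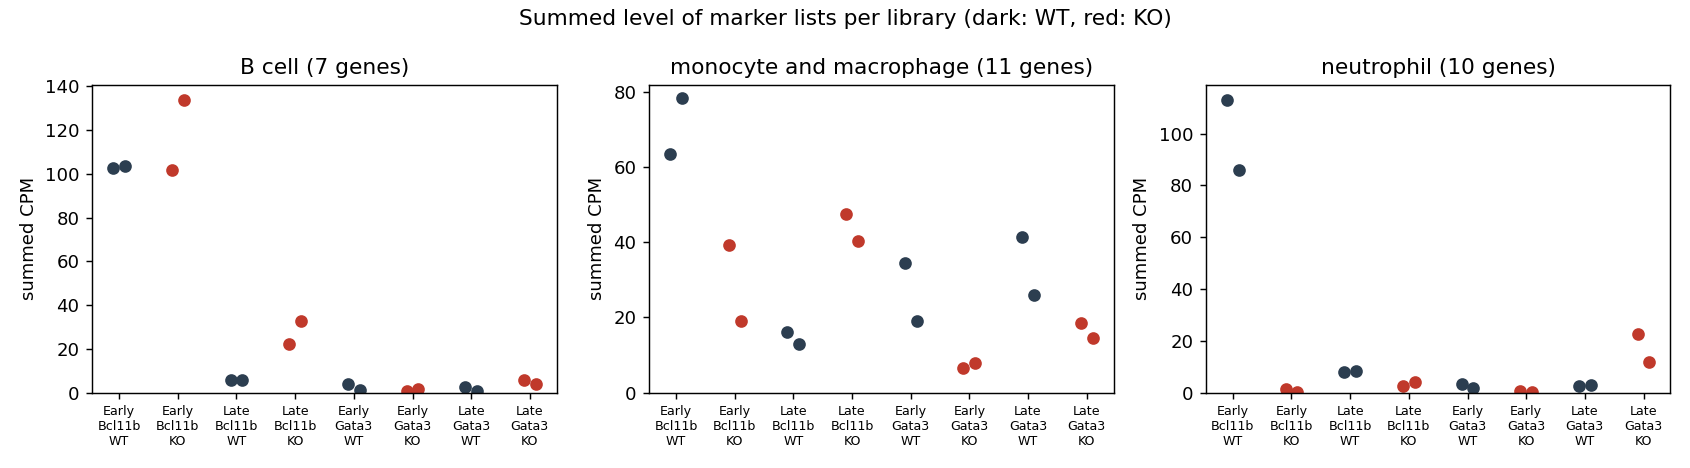
Summed CPM (vertical axis) of 3 marker lists in each library of the 8 groups (horizontal axis), each point 1 library, WT dark and KO red. B cell markers are high in all 4 early Bcl11b libraries, and neutrophil markers are highest in early Bcl11b WT. Monocyte and macrophage markers are highest in early Bcl11b WT and higher in late Bcl11b KO than in late WT.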

How the data were processed

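RNA for 16 Th2 libraries was amplified from 10 ng and sequenced, per the labels' protocols, and ChIP DNA from late WT Th2 cells was sequenced for Bcl11b, GATA3 and input. Listed without a role, per the submitters' processing notes, are the build mm10 and the tools MACS 1.4.2, Novoalign, Bowtie, TopHat2 2.0.13 and CASAVA 2.18; the sources used here do not say whether counting used strand. Each table gives, per the file headers and values, raw read counts per transcript as deposited and RPKM values computed by the authors. RPKM are relative to all mapped reads. Peak lists give the authors' fold enrichment (a ratio over control) and a score of -10 times log10 p as deposited, and the false discovery rate in percent.

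The members, the complement and marker lists and the named-gene rule were chosen with earlier results of these data known. All 7 members are described in every group. Other complement genes are named where called, at most the 6 with the smallest p-values per comparison, and likeness to a member is the highest Pearson r over 16 libraries on log2(CPM + 1). One transcript per symbol was kept, the one with the most reads of 29257 transcripts. For each experiment, genes that reached an RPKM of 1 in 2 or more libraries were fitted in 4 groups with edgeR 4.0.16 (R 4.3.3; TMM scaling, robust quasi-likelihood F test, Benjamini-Hochberg adjustment over all genes, called under 0.05). The fit was tested on simulated counts. Bounds take 3 counts over a group without reads; counting intervals are 95% and, like the bounds, cover counting error only. Alternatives were DESeq2 1.42.0, upper-quartile scaling, no filter, limma 3.58.1 on log2(RPKM + 1) and log2(RPKM + 0.1), only 4 or all 16 libraries, a replicate block, the longest transcript, the receptor read rate subtracted, and each library left out. Peaks were joined by the gene the lists assign, with a 1 bp overlap as shared. Positions and promoter sequences of genes come from RefSeq (GRCm38.p6), with no genome used here.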

Additional observations from a re-analysis of the deposited data

Results flagged for a closer look

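C3 differed in opposite directions between the stages of the Bcl11b experiment: both early KO libraries (1.04 and 1.76 CPM) were below both early WT libraries (174 and 114 CPM), and both late KO libraries (27.4 and 21.4 CPM) were above both late WT libraries (4.69 and 4.98 CPM). The late minus early difference of the KO effect was 9.01 on the log2 scale. The interaction was fitted with all genes, but no test of it is reported for C3, which was chosen with this contrast known. The early WT libraries are the 2 with the high receptor read rate, and their part in the difference was not tested.

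Hc was flagged by a test of the stage difference in the Gata3 experiment. Its fall was smaller in late than in early KO, by 4.76 ± 0.95 (SE) on the log2 scale (edgeR's quasi-likelihood interaction test, adjusted p = 0.0115), where 12.2% of the 10601 genes tested were called. Hc was lower in KO in 2 of 2 libraries at each stage. It passed the filter without the early KO libraries, which the p-value does not allow for.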

How the results depend on the processing

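Over 18 alternatives the 20 member changes gave 360 values: 321 moved by less than their SE, 39 by more, and 4 took the other sign, all for Cr1l in comparisons where it was not called. The median log2 fold change of all genes was 0.028 in early and -0.02 in late Bcl11b KO; on the RPKM scale it was 0.862 (pseudocount 1) and 1.139 (0.1) in early and -0.159 and -0.197 in late Bcl11b KO, and without the filter it was -0.691 in early Bcl11b KO. The number of other complement genes called in early Bcl11b KO was 3 (2 rose, 1 fell), and 9 without the filter (2 rose, 7 fell), 6 and 7 with limma on RPKM (pseudocount 1 and 0.1; 5 and 6 rose, 1 fell in each). In late Bcl11b KO it was 1, and 3 with DESeq2, 2 with upper-quartile scaling, 0 with limma and pseudocount 0.1, 4 with only the 4 libraries compared, 3 with all 16 and 2 with the longest transcript, all of which rose. In early Gata3 KO it was 3 (2 rose, 1 fell), and 7 without the filter (3 rose, 4 fell). In late Gata3 KO it was 2 (1 rose, 1 fell), and 1 (fell) and 0 with limma (pseudocount 1 and 0.1), 0 with only 4 libraries, 1 with all 16 and 1 with the receptor read rate subtracted (both rose). Leaving out 1 library at a time gave 2 to 4, 0 to 3, 1 to 3 and 0 to 3 in the same order. The cause of these moves was not tested. At a score of at least 100, the Bcl11b peaks of the members fell from 5 to 1 and the shared ones from 4 to 0.

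With the replicate number as a replicate block the late Gata3 count was 4 (2 rose, 2 fell). The block also called Cd93 (2.53 ± 0.56) and Cr1l (-0.32 ± 0.10) in late Gata3 KO and lost the call of Cfp in early Bcl11b KO, and it changed no other call of the members; the numbers are not known to pair samples, and same-numbered deviations correlated from -0.08 to 0.343 in the Bcl11b and 0.173 to 0.605 in the Gata3 experiment. Members with few reads, such as C3ar1 and C5ar1 in the Gata3 experiment, are limited by depth.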
